A study of Mus musculus with 6 samples.

Results

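The S100 proteins are small calcium-binding proteins built from a pair of EF-hand motifs, helix-loop-helix structures that hold the calcium ion. Most form dimers, change shape when calcium is bound and then grip partner proteins such as annexins or myosin. S100a8 and S100a9 together form calprotectin, which is abundant in the cytosol of neutrophils and monocytes, binds zinc and manganese, and acts outside the cell as an alarm signal through the receptors Tlr4 and RAGE (Ager). RNA-seq read counts of 8 S100 genes were examined here, namely S100a1, S100a4, S100a6, S100a8, S100a9, S100a10, S100a11 and S100a13. They were taken by gene name from a table of 54532 mouse genes, and all 8 were among the 14174 genes that passed the filter on low counts.

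The libraries came from cultured mouse cells labelled as dendritic cells, the antigen-presenting cells that prime T cells. There were 3 control libraries and 3 libraries of cells treated with DB2313, a small molecule that the study used to inhibit Spi1, the transcription factor PU.1 of myeloid cells. Dose, duration, mouse strain and age were not given in the labels, and nothing stated that replicates were separate cultures, so the p-values measure the spread between these libraries, which may be technical. The text of the study described peritoneal macrophages. For a PCR experiment it also described monocytes given granulocyte-macrophage colony-stimulating factor, with or without DB2313. It gave a DB2313 dose for macrophages, without tying it to these libraries. By contrast, the labels named dendritic cells, and the columns of the control libraries carried a usual short form of bone marrow-derived dendritic cells. The columns read as DB2313 were named after Spi1, and every direction below rests on that reading. Total counts ranged from 16146743 to 19764677 per library. CPM is the count scaled to a common library size with TMM factors. A mean above 10 CPM was seen for 17 of 20 dendritic cell markers and 19 of 20 macrophage markers. It was also seen for 19 of 20 neutrophil, 9 of 10 monocyte and 8 of 11 mast cell and basophil markers. For T cell markers it was 7 of 10 and for fibroblast markers 1 of 10. This level therefore does not tell the types of immune cell apart. Fewer cells of a type and less RNA per cell cannot be told apart in such bulk samples.

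All 8 genes lie on chromosome 3 (GRCm38). The first 6 in order, S100a1 to S100a9, fall within 184.7 kb, and S100a11 and S100a10 lie 2825 kb further on. S100a1 (90511034 to 90514392, minus strand) and S100a13 (90514435 to 90524581, plus strand) point away from each other with 42 bases between them. S100a4 (90603771 to 90606045) and S100a6 (90612882 to 90624181) follow on the plus strand. S100a8 (90668978 to 90670035, plus strand) and S100a9 (90692632 to 90695721, minus strand) are separated by 22.6 kb. S100a11 (93520488 to 93526287) and S100a10 (93555080 to 93564643) lie on the plus strand. S100a4 overlaps the annotated gene Gm42674 and shares 302 bp at 100% identity with it. Gm42674 had 0 counts in every library. How reads falling in both genes were handled was not given, so the counts of S100a4 could be too low. S100a11 shares 297 bp at 99.0% and 98.7% identity with the pseudogenes Gm12854 (222 to 324 counts per library) and Gm7665 (405 to 533 counts), so some of its reads could belong to them or the reverse.

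The stretches upstream of S100a6, the member that passed the test below, and of S100a8 and S100a9, the most abundant pair, are printed from RefSeq (GRCm38.p6) up to the first base that either annotation places in the gene. Capitals mark letters of GAGGAA or of its reverse complement, a core that PU.1 binds, of TTGCNNAA, a form of the C/EBP site, or of TGANTCA, the AP-1 site, each searched on both strands.

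S100a6, chr3:90612644-90612881, plus strand: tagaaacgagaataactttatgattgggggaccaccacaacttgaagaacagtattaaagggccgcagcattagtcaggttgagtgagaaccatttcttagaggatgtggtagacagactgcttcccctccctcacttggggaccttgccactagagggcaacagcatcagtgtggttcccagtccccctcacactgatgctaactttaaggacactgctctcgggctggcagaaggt

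S100a8, chr3:90668821-90668977, plus strand: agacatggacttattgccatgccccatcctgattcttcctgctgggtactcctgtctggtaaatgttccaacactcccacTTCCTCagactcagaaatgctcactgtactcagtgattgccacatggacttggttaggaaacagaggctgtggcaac

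S100a9, chr3:90695722-90695971, minus strand: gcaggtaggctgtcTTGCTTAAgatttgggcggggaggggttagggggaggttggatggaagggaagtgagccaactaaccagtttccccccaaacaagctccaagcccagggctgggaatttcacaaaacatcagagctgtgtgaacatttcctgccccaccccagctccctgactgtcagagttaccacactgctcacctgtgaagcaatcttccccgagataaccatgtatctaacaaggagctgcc

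The search used a window from 250 bases before to 50 after each RefSeq start, which was given for 7 members (not S100a10). GAGGAA was found in 3 of the 7 windows (S100a4, S100a8 and S100a11), against 28.3% of 32851 windows. S100a8 held it at both -170 to -165 and -36 to -31 relative to the start, in the antisense direction. Only the site at -170 to -165 lies in the stretch printed above, which ends before the other site. TTGCNNAA was found in S100a9 alone of the 7, against 10.8% of all windows. TGANTCA was found in S100a11 alone of the 7, against 7.81%. These matches are letters in a window and no measure of binding.

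The members spanned a wide range of levels. Compared per length as RPKM (CPM per kilobase of the gene length in the table), the order of the medians over the 6 libraries was S100a9 (2289 RPKM), S100a8 (1525), S100a11 (1344), S100a10 (355), S100a6 (177), S100a1 (79.5), S100a13 (70.8) and S100a4 (7.62). S100a9 ranked 14th, S100a8 19th and S100a11 24th by mean RPKM among the genes tested, and S100a4 ranked 5649th. The level of S100a4 is subject to its overlap with Gm42674 described above. The ranges of S100a8 and S100a11 met, at 1444 to 1888 and 1158 to 1445 RPKM, and those of S100a1 and S100a13 overlapped, at 63.8 to 91.3 and 56.1 to 82.7 RPKM. All other neighbours in this order had ranges that did not overlap. The 8 genes together took 0.352% to 0.382% of all counts in control and 0.356% to 0.442% with DB2313, and S100a8 with S100a9 made up 59.6% to 62.8% of that. The other 9 S100 genes of the table were near or at 0. Of these, 3 had no count at all, 6 had at least 1, the highest value was 10 counts (S100a3), and none passed the filter.

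To ask which S100 genes changed with DB2313, each gene was tested in edgeR (quasi-likelihood), with p-values adjusted by Benjamini-Hochberg over all genes tested. S100a6 rose, by a fold of 1.26, and none of the other 7 members passed the test in either direction. The count of 1 called member in 8 stood beside 10.6% of all genes tested, beside 4.66% for genes called higher and beside 5.94% for genes called lower, a direction in which no member had an unadjusted p under 0.05. The median log2 fold change of the 8 members was 0.068, beside 8.2e-04 for all genes tested, with 5 members above 0 and 3 below. S100a6 was the only member with an unadjusted p under 0.05 and the only one whose groups did not overlap in CPM, which was so for 27.4% of all genes tested, or 12.9% in the higher direction.

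**Figure D1:**
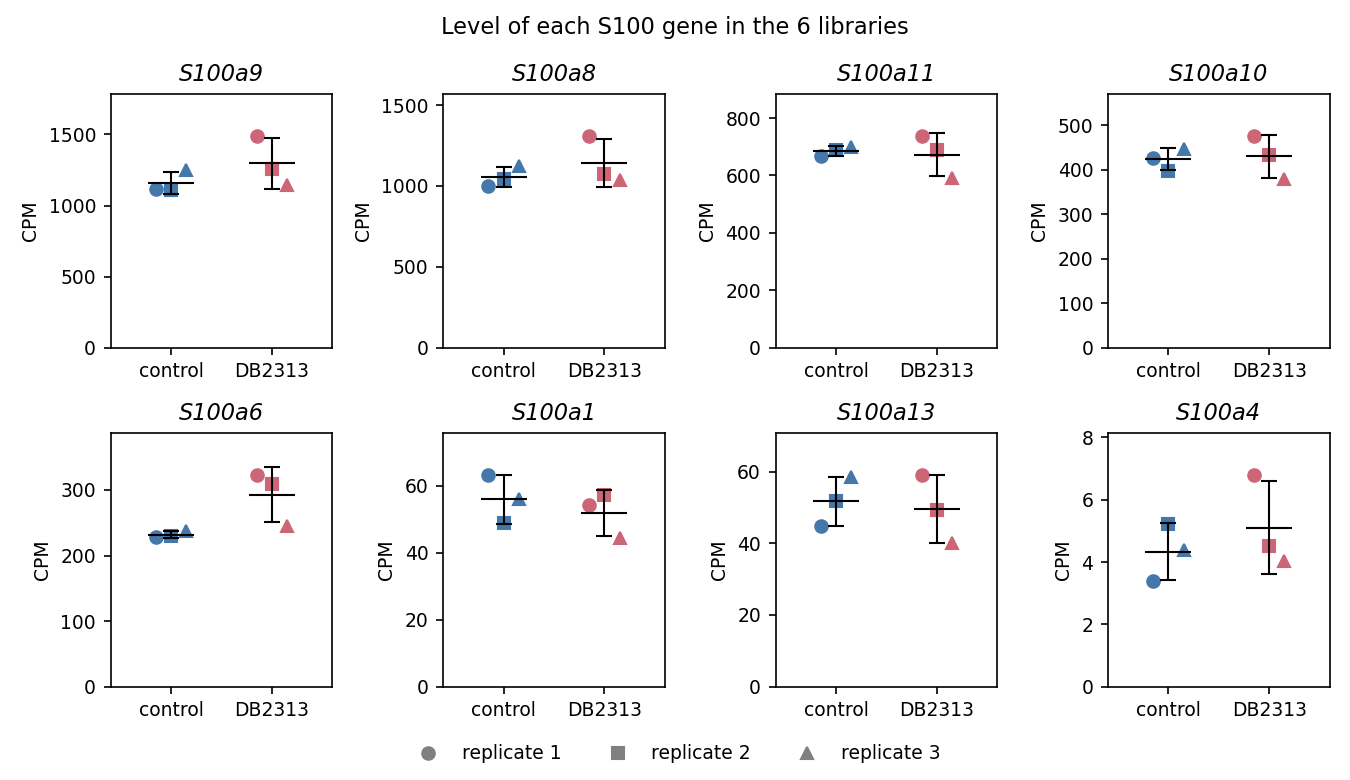
CPM of each S100 gene in the 6 libraries, with blue points for control, red points for DB2313, a marker shape per replicate number, and bars for the mean and SD of 3 libraries. Only in the S100a6 panel do the groups not overlap, and DB2313 replicate 3 (red triangle) is the lowest DB2313 library in all 8 panels.

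S100a6, also called calcyclin, binds Cacybp and Sugt1 and is found in growing and migrating cells. It was measured at 229, 229.8 and 238 CPM in control replicates 1 to 3 and at 323, 309 and 245 CPM in DB2313 replicates 1 to 3. The control libraries lay close together, DB2313 replicates 1 and 2 stood well above them, and DB2313 replicate 3 was only just above the highest control library. The means were 232 ± 4.95 and 293 ± 41.4 CPM (SD, n = 3 each). The log2 fold change was 0.33 ± 0.089 (SE), a fold of 1.26 with a 95% interval of 1.11 to 1.44 and an adjusted p of 0.0252 in edgeR. The direction held in all 6 fits that each left out 1 library, but the call was lost in 4 of them, with an edgeR adjusted p of 0.113, 0.11 and 0.0833 without control replicates 1, 2 and 3, and of 0.152 without DB2313 replicate 2. Its binding partners did not pass the test, with log2 fold changes of -0.2 ± 0.085 for Cacybp and 0.11 ± 0.077 for Sugt1 (SE, edgeR adjusted p 0.167 and 0.449).

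S100a9 is the larger subunit of calprotectin. It was measured at 1115, 1110.5 and 1249 CPM in control replicates 1 to 3 and at 1490.1, 1258 and 1141 CPM in DB2313 replicates 1 to 3. DB2313 replicate 1 was the highest library, and DB2313 replicate 3 lay within the control range. The log2 fold change was 0.16 ± 0.089 (SE), a fold of 1.12 with a 95% interval of 0.981 to 1.28 and an edgeR adjusted p of 0.297. Without DB2313 replicate 3 the log2 fold change was 0.25 and the gene passed, with an edgeR adjusted p of 0.0166. Without DB2313 replicate 1 it was 0.052, with an adjusted p of 0.752.

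S100a8, its partner subunit, was at 1002, 1041 and 1121 CPM in control and at 1310, 1075 and 1039 CPM with DB2313. The groups overlapped, with DB2313 replicate 1 again the highest library. The log2 fold change was 0.11 ± 0.085 (SE), a fold of 1.08 with a 95% interval of 0.954 to 1.23 and an edgeR adjusted p of 0.471. These intervals leave room for changes of S100a8 and S100a9 up to about the size seen for S100a6. The ratio of S100a8 to S100a9 counts was 0.899, 0.937 and 0.898 in control and 0.879, 0.855 and 0.911 with DB2313, with means of 0.911 ± 0.0225 and 0.882 ± 0.0279 (SD, n = 3 each). The ranges overlapped, and an exact two-sided permutation test gave a p of 0.3. The smallest p that 3 against 3 libraries allow is 0.1, so this test could not have passed and says nothing about whether the ratio was stable.

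S100a10 differs from its relatives in having lost calcium binding, and forms a complex with annexin A2 (Anxa2) at the cell membrane. It was at 426, 398 and 447 CPM in control and at 476, 434 and 380.1 CPM with DB2313, so that the highest and the lowest library were both DB2313 libraries. Its log2 fold change was 0.021 ± 0.083 (SE), a fold of 1.01 with a 95% interval of 0.898 to 1.15. Anxa2 was likewise close to 0, at -0.015 ± 0.078 (log2 fold change ± SE).

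S100a11, which binds annexin A1 (Anxa1), was at 668, 687 and 700.4 CPM in control and at 738, 687 and 592 CPM with DB2313. The DB2313 libraries lay on both sides of the narrow control range. Its log2 fold change was -0.027 ± 0.079 (SE), a fold of 0.981 with a 95% interval of 0.874 to 1.10. Anxa1 itself rose from 445 ± 15.8 to 526 ± 16.2 CPM (SD, n = 3 each), by 0.24 ± 0.065 (SE) on the log2 scale (edgeR adjusted p 0.026). Its call was lost without control replicate 2 and without control replicate 3.

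S100a1, best known from heart and skeletal muscle, where it acts on the calcium pump Atp2a2, was at 63.3, 48.8 and 56.0 CPM in control and at 54.3, 57.2 and 44.3 CPM with DB2313. Its log2 fold change was -0.11 ± 0.11 (SE), a fold of 0.927 with a 95% interval of 0.787 to 1.09. S100a13, which takes part in the release of Fgf1 and Il1a from cells by a route outside the classical one, was at 44.7, 51.9 and 58.5 CPM in control and at 59.1, 49.3 and 40.1 CPM with DB2313. Its log2 fold change was -0.062 ± 0.13 (SE), a fold of 0.958 with a 95% interval of 0.793 to 1.16. The groups overlapped for both genes. Although the genes start next to each other, the highest control library was replicate 1 for S100a1 and replicate 3 for S100a13, and the Pearson r of their log2 CPM over the 6 libraries was 0.29. S100a4, a partner of the myosin heavy chain Myh9, rested on 55 to 112 counts per library. It was at 3.38, 5.21 and 4.39 CPM in control and at 6.80, 4.51 and 4.03 CPM with DB2313, a log2 fold change of 0.24 ± 0.25 (SE) with a fold interval of 0.814 to 1.71, the widest of the 8 members.

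**Figure D2:**
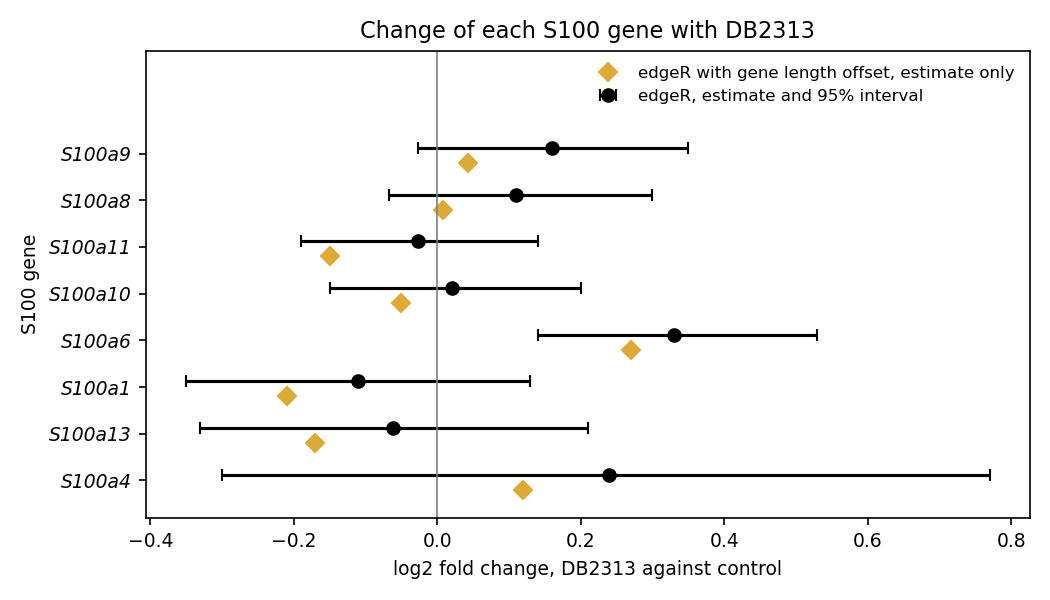
Log2 fold change of each S100 gene, DB2313 against control, with the edgeR estimate and its 95% interval in black and the estimate with an offset for gene length in yellow. The interval of S100a6 alone lies above 0 (0.14 to 0.53), and with the offset every estimate is lower.

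The members varied together among the DB2313 libraries. In 7 of 8 members DB2313 replicate 1 was the highest, replicate 2 the middle and replicate 3 the lowest of these libraries, an order seen in 24.1% of all genes tested. S100a1 was the exception, with replicate 2 highest. The difference between DB2313 replicates 1 and 3 in log2 CPM ran from 0.29 for S100a1 to 0.74 for S100a4. The median of this signed difference over all genes tested was -0.0046, which shows direction and not the usual size of a difference. Across genes, these libraries differed more than any other pair within a group (chi-square per degree of freedom of 19.4). For every member except S100a1 the difference between DB2313 replicates 1 and 3 was larger than the whole range of the control libraries. For S100a11 it was 0.32 against 0.067, whereas for S100a1 it was 0.29 against 0.38. The coefficient of variation was higher with DB2313 than in control for all 8 members. For S100a6 it was 2.13% in control and 14.1% with DB2313, beside medians of 8.40% and 10.8% for all genes tested. The share of all genes tested that did the same was not counted for either comparison, so neither marks the members out.

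All 8 members are short, at 511 to 1367 bp in the table against a median of 3988 bp for the genes tested, and the libraries differed in how genes of different length read. At the length of S100a9 (522 bp) the fitted trend stood at 0.157 on the log2 scale in DB2313 replicate 1, 0.0795 in replicate 2 and -0.0378 in replicate 3, and at -0.058, -0.0851 and -0.00199 in control replicates 1 to 3. With an offset for this trend the log2 fold change of S100a9 was 0.043 and that of S100a8 was 0.0086. S100a6 still passed the test, at 0.27 with an edgeR adjusted p of 0.0111. S100a11 moved to -0.15 (adjusted p 0.103), S100a1 to -0.21 (0.163) and S100a13 to -0.17 (0.334). S100a10 turned to -0.051 (0.655).

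**Figure D3:**
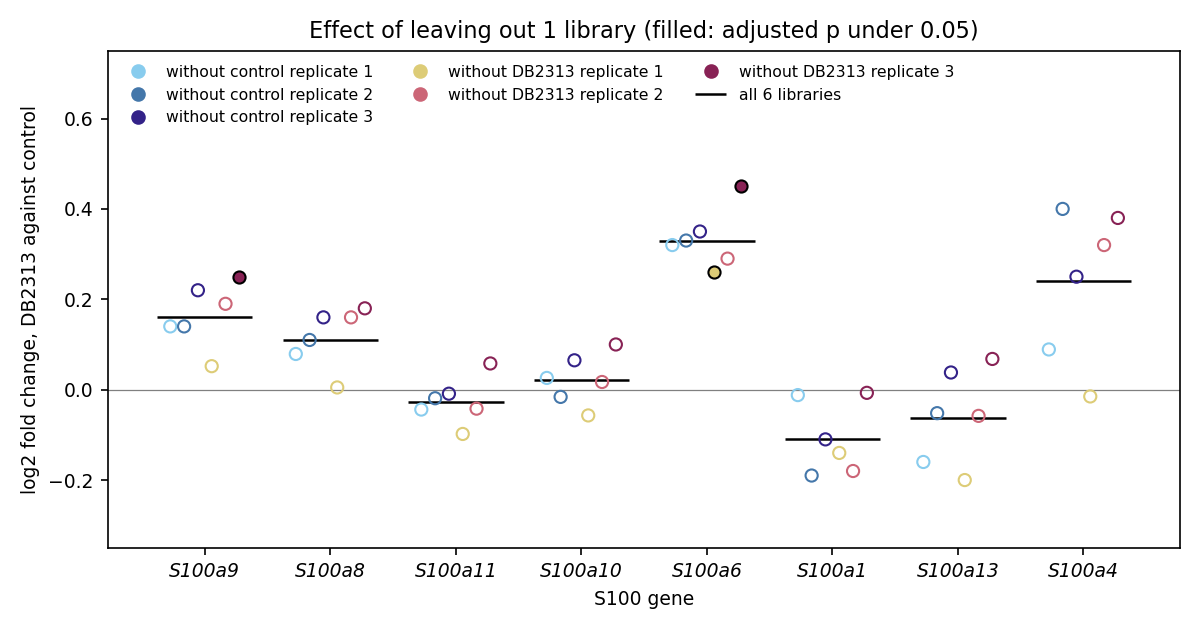
Log2 fold change of each S100 gene, DB2313 against control, in the 6 fits that each left out 1 library (circles, filled where the edgeR adjusted p was under 0.05) and with all libraries (black lines). Without DB2313 replicate 3 all members but S100a1 are above 0, and without DB2313 replicate 1 only S100a6, S100a9 and S100a8 are.

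Over the 6 libraries, which share depth and scaling between genes, the log2 CPM of S100a8 and S100a9 had a Pearson r of 0.97, the highest of the 28 pairs of members. The r of S100a11 with S100a13 was 0.91 and that of S100a10 with S100a11 was 0.87. The lowest was -0.24, between S100a1 and S100a4, and 27 of the 28 pairs were above 0. Among 5906 other protein-coding genes with a mean log2 CPM of at least 5, the profile most like that of S100a9 was Lamtor4 (r = 0.998), followed by Tuba1b (0.99). S100a8 was closest to Sra1 (0.988) and Tsen34 (0.982), and S100a6 to Lgals1, the galectin-1 gene, and Rab11a (0.993 each). S100a10 was closest to Hmgb2 (0.996) and Arf5 (0.995), and S100a11 to Atf4 (0.995) and Tmed3 (0.993). S100a13 was closest to Ldha (0.981) and Hmgb1 (0.979), S100a1 to Bad (0.98) and Atf1 (0.957), and S100a4, among 5907 genes, to Ccz1 (0.998) and Dym (0.993). With 6 libraries and so many genes such values are a description only.

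The region of chromosome 3 from S100a1 to S100a10 (90511034 to 93564643) holds 121 annotated genes, many of them genes of the skin barrier, and 11 of these were tested. Besides the 8 members these were Gm9774, the pseudogene Gm4202 and Tchh, a hair follicle gene. None of the 3 was called by edgeR. Tchh had the lowest adjusted p, at 0.177 (unadjusted 0.0369), from 75 to 102 counts in control and 56 to 88 with DB2313.

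Receptors and binding partners of S100 proteins were examined as a list of 37 genes, of which 36 were tested. With DB2313, 3 were higher and 6 were lower, which was 25.0% of those tested beside 10.6% of all genes, and their median log2 fold change was -0.14. The co-receptors of Tlr4 fell. Cd14, which hands ligands to Tlr4, fell from 171 ± 9.87 to 92.8 ± 7.71 CPM (SD, n = 3 each), a log2 fold change of -0.88 ± 0.08 (SE, edgeR adjusted p 6.39e-06). Ly96, the MD-2 subunit of the Tlr4 complex, fell by 1.08 ± 0.22 on the log2 scale (adjusted p 0.0044). Its level was low, at 7.13 to 11.3 CPM in control and 3.56 to 5.28 CPM with DB2313. Tlr4 itself was at -0.077 ± 0.15 and Ager at 0.54 ± 0.29 (log2 fold change ± SE, edgeR adjusted p 0.822 and 0.296), and Ager was near the lower limit of detection at 1.63 to 4.31 CPM. Cd36, a scavenger receptor that also binds the S100a8 and S100a9 complex with arachidonic acid, rose by 0.35 ± 0.088 (adjusted p 0.019).

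Both cargoes of the S100a13 route fell. The log2 fold changes were -0.84 ± 0.22 for Il1a and -0.72 ± 0.16 for Fgf1 (SE, edgeR adjusted p 0.0223 and 0.0095), at levels of 6.84 to 8.84 and 9.53 to 11.2 CPM in control. Myh9, the partner of S100a4, fell from 2702 ± 269 to 2217 ± 188 CPM (SD, n = 3 each), by 0.29 ± 0.082 on the log2 scale (SE, adjusted p 0.0363). Of the NADPH oxidase, which S100a8 and S100a9 feed with arachidonic acid in phagocytes, the membrane subunit Cybb fell by 0.47 ± 0.089 on the log2 scale (adjusted p 0.00282) and Rac2 rose by 0.23 ± 0.07 (0.0472), while Cyba and Ncf1 were at -0.042 and -0.14 and did not pass. Tubb5, a tubulin gene, was at -0.16 ± 0.074 (adjusted p 0.222). The number of listed genes called higher was 1, 0 and 0 without control replicates 1, 2 and 3 and 1 without DB2313 replicate 2. The number called lower was 10 without DB2313 replicate 1 or 3 and 3 without DB2313 replicate 2.

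Of 20 transcription factors tied to S100a8 and S100a9, all tested, 3 were higher and 3 lower, 30.0% of those tested beside 10.6% of all genes, with a median log2 fold change of -0.019. Gfi1 and Cebpe, which act in the making of granulocytes, rose by 0.66 ± 0.14 and 0.43 ± 0.083 (SE, edgeR adjusted p 0.00628 and 0.00319), and Irf7 rose by 0.42 ± 0.11 (0.0218). Fos and Junb, subunits of AP-1, fell by 0.63 ± 0.14 and 0.30 ± 0.083 on the log2 scale (0.00796 and 0.0278), and Hif1a fell by 0.27 ± 0.076 (0.0327). Spi1, the target of DB2313, was at -0.15 ± 0.071 (adjusted p 0.206), and Cebpb and Cebpa at -0.21 and -0.019 did not pass. The number of factors called lower was 0 without control replicate 1, 1 without control replicate 3, 5 without DB2313 replicate 1 and 1 without DB2313 replicate 2.

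Of 42 other genes of EF-hand calcium sensors, 39 were tested and 2 were higher and 3 lower. This was 12.8% of those tested, near the 10.6% of all genes, so the count is no result about the list, and the called genes are given as single genes. The median log2 fold change was -0.0099. Aif1, a macrophage actin-binding protein, rose from 21.6 to 29.0 CPM in control to 42.5 to 54.3 CPM with DB2313, by 0.89 ± 0.12 on the log2 scale (SE, edgeR adjusted p 2.26e-04). Rcn3 rose by 1.36 ± 0.33 from a level of 0.878 to 2.40 CPM (0.015). Eps15, Capn2 and Actn1 fell by 0.32, 0.31 and 0.29 on the log2 scale (adjusted p 0.00901, 0.0173 and 0.016). Lcp1, an actin-bundling protein of blood cells, was at -0.0099 ± 0.062 and did not pass (log2 fold change ± SE, adjusted p 0.95). The number called higher was 1 without control replicate 2 or 3 and 6 without DB2313 replicate 3. The number called lower was 1 without control replicate 1, 0 without control replicate 2 or DB2313 replicate 2, and 5 without DB2313 replicate 1.

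Because S100a8 and S100a9 are abundant in neutrophils, they were set beside a list of 20 neutrophil marker genes. Of the 19 tested, 8 were higher with DB2313 and 1, the receptor gene Csf3r, was lower. This was 47.4% of those tested beside 10.6% of all genes (4.66% higher and 5.94% lower), and their median log2 fold change was 0.29. Cebpe, among the 8, was also counted among the factors called higher, so the 2 counts are not independent. The summed level of the list was 7513 to 7603 CPM in control and 8061 to 8879 CPM with DB2313. No marker was at 0 in every library. Chil3 was the largest part of this sum (mean 3746 CPM for control libraries, 4003 CPM for DB2313 libraries). It was not called (edgeR adjusted p 0.478), and it is also the most abundant gene of the monocyte list below. Mmp8, the neutrophil collagenase, rose from 324 ± 37.7 to 636 ± 61.4 CPM (SD, n = 3 each), by 0.98 ± 0.09 (SE) on the log2 scale (edgeR adjusted p 7.74e-06). Elane, neutrophil elastase, and Ly6g rose by 0.69 ± 0.11 and 0.56 ± 0.11 (5.94e-04 and 0.00473). The smallest rise among the 8 was that of Ctsg, at 0.33 ± 0.082 (edgeR adjusted p 0.019). Ngp and Camp were at -0.013 ± 0.10 and -0.29 ± 0.14 (0.959 and 0.228). Ltf, Mpo and Prtn3 were at 0.24 ± 0.082, 0.30 ± 0.092 and 0.29 ± 0.10 (edgeR adjusted p 0.0826, 0.0501 and 0.0867). None of these passed. S100a8 and S100a9 lay within the span of this list, and whether they differ from the called markers was not tested. The number of neutrophil markers called higher was 4 without control replicate 1, and 5 with the replicate block and gene length offset together. The number called lower was 0 without control replicate 1 or DB2313 replicate 2, so that the call of Csf3r was lost, and 2 without DB2313 replicate 1. Of 10 monocyte markers, cells that also hold S100a8 and S100a9, 2 were higher and 1 lower (30.0% beside 10.6% of all genes). The summed level overlapped, at 4959 to 5421 CPM in control and 5187 to 5909.6 CPM with DB2313. Of 19 dendritic cell markers tested, the labelled cell type, 2 were higher and 4 lower (31.6%), with 3 log2 fold changes above 0 and 16 below. The summed level did not overlap, at 19504 to 20268 CPM in control and 16470.4 to 19425 CPM with DB2313. Of 8 mast cell and basophil markers tested, 2 were higher (25.0%) and the other 6 were not called. The summed level overlapped, at 2519 to 2719.8 CPM in control and 2568 to 3079 CPM with DB2313, with Tpsab1 at 0 in every library. T cell markers summed to 182 to 219 CPM in control and 188 to 273 CPM with DB2313. Macrophage markers had the largest share called among these marker lists, with 3 higher and 11 lower of 20 (70.0% beside 10.6% of all genes). Cd14, among the lower ones, was also counted among the S100 partners above. Macrophage markers summed to 11043 to 12469 CPM in control and 9897 to 10792 CPM with DB2313. Lyz2 was the largest part of that sum (mean 8751 CPM for control libraries, 7887 CPM for DB2313 libraries). It was not called (edgeR adjusted p 0.218). Such sums mainly follow the most abundant genes of a list and do not measure how many cells of a type were present. The part of these cell types in the levels of S100a8 and S100a9 was not tested.

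**Figure D4:**
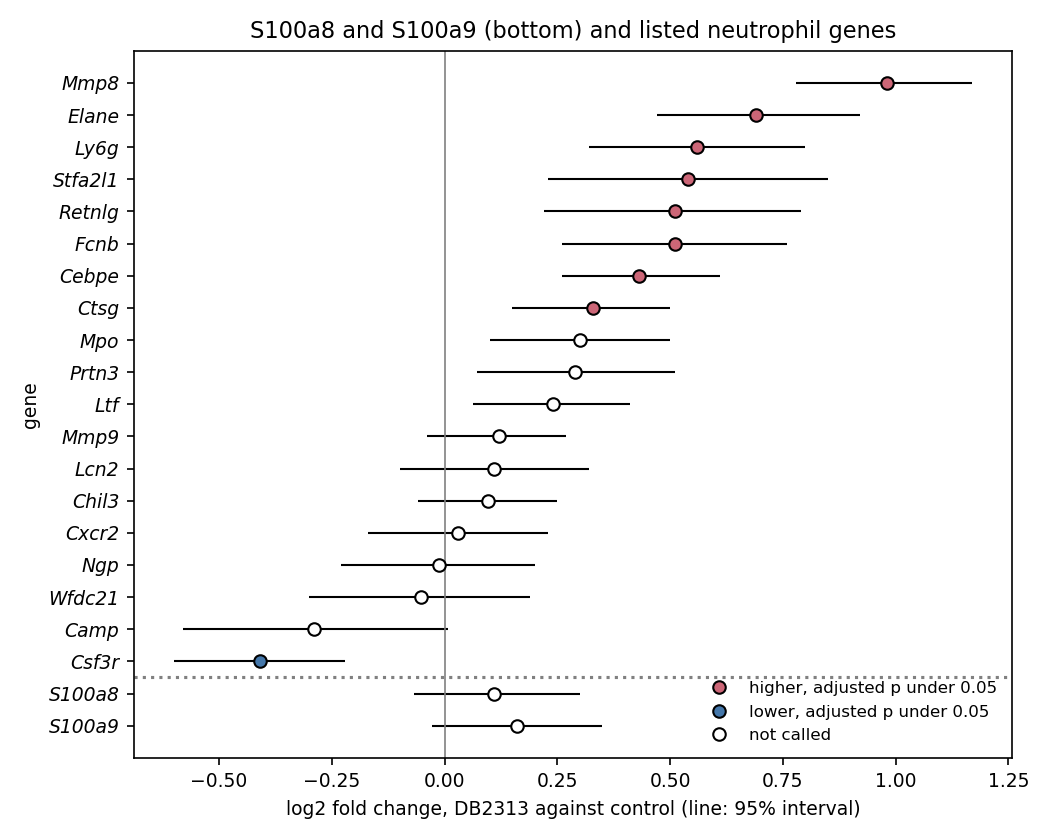
Log2 fold change with its 95% interval for the 19 neutrophil markers tested and, at the bottom, for S100a8 and S100a9, with filled points for genes at an edgeR adjusted p under 0.05. The 8 markers called higher range from 0.33 to 0.98, Csf3r is lower at -0.41, and the markers not called range from -0.29 to 0.30. S100a8 at 0.11 and S100a9 at 0.16, with intervals that include 0, lie among those not called.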

How the data were processed

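The deposited table held unnormalised whole-number counts of reads for each gene, 1 column per library, none pooled. Tools listed in the submitters' processing notes were CASAVA 1.8, HISAT2 2.0.5 and featureCounts 1.5.0-p3, whereas the methods of the study name LifeScope, so the aligner is uncertain. Strandedness, the handling of reads with several matches and the build were not given in the sources used here. Start and end matched GENCODE M21 for 98.33% of the 54495 gene identifiers found in both, so coordinates are GRCm38. The gene length in base pairs is also as deposited by the authors, as another value beside the counts.

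Groups came from the treatment in the labels. Library columns were matched by their short names and replicate numbers. Replicate pairs differed by more than sampling noise (chi-square per degree of freedom of 5.03 to 19.4).

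The test was edgeR 4.0.16 (quasi-likelihood, TMM, filterByExpr, group as the only term, R 4.3.3) over all 14174 genes tested, with a call at an adjusted p under 0.05. It was tested on simulated data. Intervals are 95% intervals of the fit and cover the spread between libraries. The reads carried no molecular identifiers, so a count is not a number of independent molecules. Copies were searched with blastn 2.17.0 at 95% identity over at least 100 bp. Alternatives were DESeq2 1.42.0 (named by the study), limma-voom (limma 3.58.1), robust edgeR, other scaling, other filters, a prior count of 2, a lowess offset for gene length (span 0.3), the replicate number as a block, and the omission of each library. No batch was given in the labels.

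Members and gene lists were chosen with earlier results of these data known, so counts over lists are descriptions and were given no test. The naming rule took the 8 members and the 2 genes most like each member. From the partner, factor, sensor and neutrophil lists it took the called genes (above 6, the 3 highest and 3 lowest) and up to 3 others by level. Called genes of the other marker lists were not named under it. Outside this rule, Anxa2, Cacybp, Sugt1, Fgf1, Myh9, Cybb, Tlr4, Ager, Cebpa, Cebpb, Camp, Tchh, Gm9774 and Gm4202 were chosen after their values were seen. So were Mpo, Prtn3 and Lyz2.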

Additional observations from a re-analysis of the deposited data

How the results depend on the processing

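The log2 fold change of S100a6 kept its direction in all 17 alternatives, from 0.26 to 0.45, and passed in 13 of them. It passed under every other tool, scaling, filter and offset tried, and over the 6 fits that left out 1 library its log2 fold change ranged from 0.26 to 0.45. S100a1, S100a8 and S100a9 kept their sign throughout, and over the same 6 fits S100a9 ranged from 0.052 to 0.25. S100a8 was at 0.0049 without DB2313 replicate 1, and S100a1 at -0.007 without DB2313 replicate 3. Values this small give no direction. S100a10 turned to -0.051 with the gene length offset and to -0.052 with the replicate block and that offset together, and ranged from -0.057 to 0.10 over the fits that left out 1 library. In those fits S100a4 ranged from -0.015 to 0.40, S100a11 from -0.098 to 0.058 and S100a13 from -0.20 to 0.068. The cause was not tested. No value of these 4 genes passed a threshold. The log2 ratio of S100a8 to S100a9 counts, DB2313 minus control, was -0.048.

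Libraries with the same replicate number did not deviate together (correlations of deviations 0.00351, -0.0238 and -0.121). With the replicate block, S100a6 stayed at 0.33 with an edgeR adjusted p of 0.0482, and 1 partner gene was called higher in place of 3.

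With the gene length offset, 6 factors were called lower in place of 3. Over the fits that left out 1 library, genes called higher ranged from 328 to 1097 and lower from 411 to 1311. In the lists, partners called higher ranged from 0 to 3 and lower from 3 to 10, factors called lower from 0 to 5, and sensors called higher from 1 to 6 and lower from 0 to 5.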
